A study of Mus musculus with 18 samples.

Results

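The genes of sterol and lipid synthesis were followed in mouse cortical neurons depolarized with potassium chloride (KCl). The set holds 34 genes: enzymes that build cholesterol and its isoprenoid precursors, proteins that control the SREBP transcription factors, sterol transporters, and enzymes that make or desaturate fatty acids. Members were found by gene symbol among the probe sets of a pair of Affymetrix array types, called sets A and B here. Of the 34 genes, 33 had at least 1 probe set carrying their symbol. No probe set carried the symbol of Acat2, the cytosolic thiolase at the head of the pathway, as its single gene, and it has no value here. The 33 genes had 73 probe sets, 59 from set A, which carries 22626 without controls, and 14 from set B, which carries 22511. Of these, 58 on set A and 11 on set B passed the filter on low signal and were tested, and all 33 genes kept at least 1 tested probe set among 15232 tested genes.

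The cultures came from postnatal day 0 mouse cortex (the labels also use the word embryonic) and had grown for 7 days in vitro. The labels give no genotype or strain and no agent other than KCl. They received KCl for 0, 1 or 6 h, at 55 mM by the sample labels and at 50 mM by the series text. Every time point was measured on 3 arrays of each set (n = 3), which the series text describes as independent experiments. The 0 h cultures are the controls, and the labels name no untreated cultures kept for 1 or 6 h, so time in culture and KCl cannot be told apart. The RNA came from whole cultures, in which fewer cells of a type and less RNA per cell cannot be told apart.

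Cells make cholesterol from acetyl-CoA through mevalonate, isoprenoid diphosphates, squalene and lanosterol. The SREBP factors are made as precursors in the membrane of the endoplasmic reticulum. The escort protein Scap carries them to the Golgi for cleavage when sterol is scarce, and the Insig proteins hold Scap back when sterol is plentiful. Cleaved SREBP enters the nucleus and binds sterol regulatory elements in promoters of pathway genes, usually together with NF-Y, which binds CCAAT boxes, and Sp1. Brain cholesterol is made locally, because lipoproteins of the blood do not cross the blood-brain barrier, and astrocytes are a main source of it for neurons.

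The promoters of 5 enzymes are shown because they hold 1 motif of this control, the CCAAT box, and because these genes moved in different ways. Each line gives the 250 bases before the transcription start, 5′ to 3′ on the gene's strand, from RefSeq on build GRCm38.p6. Capitals mark the CCAAT box on either strand (CCAAT or ATTGG) and, in Hmgcs1, the sterol regulatory element. Hmgcs1, Idi1, Cyp51 and Msmo1 encode enzymes that had a called rise against 0 h or 1 h, and Mvk is a gene of the same chain that fell.
Hmgcs1, chr13:119690101-119690350, plus strand: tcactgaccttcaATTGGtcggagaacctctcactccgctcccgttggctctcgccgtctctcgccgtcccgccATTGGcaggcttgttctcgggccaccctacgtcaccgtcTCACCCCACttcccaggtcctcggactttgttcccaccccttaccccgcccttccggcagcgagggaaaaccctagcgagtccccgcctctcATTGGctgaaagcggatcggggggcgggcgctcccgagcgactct
Idi1, chr13:8885356-8885605, plus strand: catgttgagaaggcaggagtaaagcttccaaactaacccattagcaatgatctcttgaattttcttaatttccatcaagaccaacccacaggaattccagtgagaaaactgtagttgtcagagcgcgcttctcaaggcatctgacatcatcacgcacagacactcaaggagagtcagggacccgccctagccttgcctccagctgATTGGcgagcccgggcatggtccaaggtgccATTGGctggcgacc
Cyp51, chr5:4104698-4104947, minus strand: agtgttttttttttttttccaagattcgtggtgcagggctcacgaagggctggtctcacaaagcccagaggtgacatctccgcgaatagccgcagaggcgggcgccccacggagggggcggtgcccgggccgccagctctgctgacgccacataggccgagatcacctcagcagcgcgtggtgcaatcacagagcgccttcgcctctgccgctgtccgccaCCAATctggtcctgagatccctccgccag
Msmo1, chr8:64733579-64733828, minus strand: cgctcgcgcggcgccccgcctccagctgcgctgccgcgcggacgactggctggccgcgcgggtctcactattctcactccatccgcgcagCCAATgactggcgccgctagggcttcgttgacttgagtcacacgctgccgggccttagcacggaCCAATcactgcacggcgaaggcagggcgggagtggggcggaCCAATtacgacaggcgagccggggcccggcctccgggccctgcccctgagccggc
Mvk, chr5:114444019-114444268, plus strand: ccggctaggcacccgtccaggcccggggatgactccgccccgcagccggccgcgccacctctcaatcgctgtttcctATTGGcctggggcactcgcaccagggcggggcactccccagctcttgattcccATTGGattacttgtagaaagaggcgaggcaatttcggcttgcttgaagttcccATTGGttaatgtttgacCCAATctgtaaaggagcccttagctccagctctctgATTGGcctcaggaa

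In these printed stretches Hmgcs1 held 3 CCAAT boxes, Idi1 held 2, Cyp51 held 1, Msmo1 held 3 and Mvk held 5. A window was given for 25 of the 34 genes, each with 250 bases before the start and 50 after it, 33 windows in all. A CCAAT box on either strand stood in 20 of these 25 genes, against 41.1% of 27025 genes with a window. The Sp1 box GGGCGG stood in 22 of 25, against 38.2%. The strict sterol regulatory element TCACNCCAC stood in 1 of 25, Hmgcs1, as TCACCCCAC with its first base 137 bases before the start, against 1.44% of all genes. The E-box CACGTG stood in 6 of 25, against 8.09%, and the cAMP response element TGACGTCA in 0 of 25, against 2.03%. None of these motif strings contains another, and all were searched on both strands. Of the members with a window, all 6 that rose at 6 h held a CCAAT box, as did 2 of the 4 that fell and 12 of the 14 that did not pass the test. These counts describe letters in a window, and binding was not measured.

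The median signal of an array was 164 to 196 units for set A and 181 to 275 for set B. Background was taken as the 95th percentile over 27 bacterial controls, 74.8 units for set A and 369 for set B. Residual SDs had a median of 0.28 log2 units (set A) and 0.73 (set B). The activity-regulated gene Fos went from a mean of 245 units at 0 h to 24849 at 1 h and 3862 at 6 h, so the cultures responded. RNA or cRNA quality, read from control probe sets, also moved with time. For Actb, the set A controls gave a 5' to 3' ratio of 0.347, 0.298 and 0.529 in 0 h replicates 1 to 3, of 0.614 to 0.711 at 1 h and of 0.556 to 0.596 at 6 h. The 0 h arrays lay below all others, and 0 h replicate 3 lay nearest to them. Results that rest on that array are given with and without it below. On set B, the 3 arrays numbered 1 held 27.4% to 28% values below 0 and the other 6 none, so more than 1 summary method was used. A replicate block on set B also takes out this difference of method.

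Changes are log2 differences of signal + 16 units, which understates the change of dim genes, with standard error (SE). P-values come from limma and were adjusted by Benjamini-Hochberg over all tested probe sets of an array set, and an adjusted p under 0.05 counts as a call. A gene is represented by its brightest probe set, on set A wherever it had one. Insig1 alone was read on set B. On these probe sets 0 h means ran from 92.6 units for Acaca to 26442 for Hmgcs1.

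After 1 h, 1 of 33 member genes had changed, Cyp51, which rose. Over all genes, 1.79% were called at 1 h, 1.1% higher and 0.689% lower. By 6 h, 15 of 33 were called, 9 higher and 6 lower, beside 16.6% of all genes, 6.11% higher and 10.5% lower. Between 1 and 6 h, 12 of 33 were called, 8 higher and 4 lower, beside 9.76% of all genes, 3.97% higher and 5.79% lower. Of the 17 enzymes from Hmgcs1 to Dhcr7, 8 rose and 2 fell at 6 h, with a median log2 change of 0.48, against -0.09 over all genes. The 17 genes with no call of the brightest probe set in any of the 3 comparisons were Mvd, Fdft1, Lss, Tm7sf2, Nsdhl, Ebp, Insig1, Insig2, Srebf1, Srebf2, Abca1, Npc1, Npc2, Scd1, Scd2, Fasn and Acaca. Of these, Fdft1, Insig2, Srebf2, Abca1, Npc2, Scd1 and Scd2 had another probe set that was called. With any probe set counted, 6 of 33 genes were called at 1 h, 21 at 6 h and 16 between 1 and 6 h. No share over all genes was taken for that count.

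**Figure D1:**
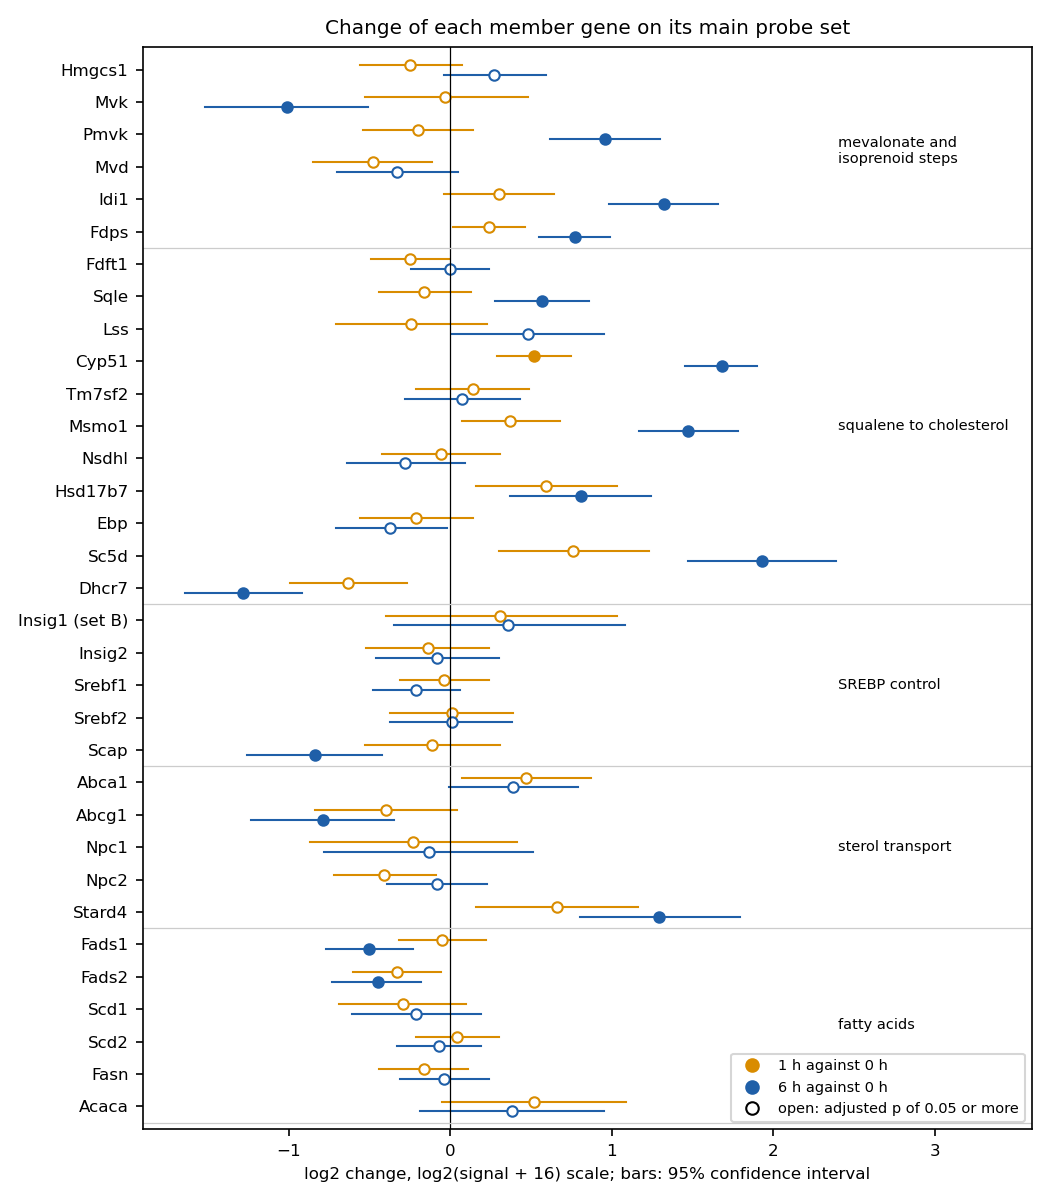
Log2 change of each gene on its brightest probe set at 1 h (orange) and 6 h (blue) against 0 h, with 95% confidence intervals; filled points passed an adjusted p of 0.05. At 6 h the filled points to the right are 8 enzymes of sterol synthesis and Stard4, and those to the left are Mvk, Dhcr7, Scap, Abcg1, Fads1 and Fads2.

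The early steps make mevalonate and turn it into isoprenoid diphosphates. Of the 6 measured genes of these steps, 3 rose and 1 fell at 6 h, beside 6.11% and 10.5% of all genes. None was called at 1 h, beside 1.79% of all genes. Hmgcs1, the cytosolic HMG-CoA synthase, read 25826, 31316 and 22183 units at 0 h, 24490, 22974 and 19114 at 1 h, and 28458, 33571 and 33260 at 6 h. The 6 h arrays lay above the 1 h arrays and overlapped the 0 h arrays. The change was 0.27 ± 0.14 against 0 h (adjusted p = 0.208) and 0.52 ± 0.14 against 1 h (adjusted p = 0.0349). Its 3 other set A probe sets were called higher at 6 h, at 0.37, 0.64 and 0.89.

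Mvk, mevalonate kinase, read 656, 864 and 513 units at 0 h, 845, 663 and 489 at 1 h, and 355, 257 and 359 at 6 h. All 6 h arrays lay below all others, while 0 h and 1 h overlapped. Mvk fell by 1.01 on the log2 scale at 6 h (SE 0.23, adjusted p = 0.00793), and its second probe set read -0.51 against 0 h (adjusted p = 0.142) and -1.28 against 1 h (adjusted p = 0.0035). Pmvk, phosphomevalonate kinase, which takes the product of Mvk, went the other way. It read 1167, 1189 and 926 units at 0 h, 1075, 993 and 789 at 1 h, and 2460, 1961 and 1999 at 6 h. The 6 h arrays stood apart from all 6 others, and the rise was 1.94-fold (log2 0.96 ± 0.16, adjusted p = 9.91e-04).

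Mvd, the decarboxylase that makes isopentenyl diphosphate, read 1498, 1589 and 1110 units at 0 h, 1124, 1103 and 779 at 1 h, and 1093, 1156 and 1055 at 6 h. The groups overlapped, and its changes were -0.48 ± 0.17 at 1 h and -0.33 ± 0.17 at 6 h, neither called. Idi1, which isomerises isopentenyl diphosphate, read 2305, 1745 and 1553 units at 0 h, 2645, 1979 and 2253 at 1 h, and 4884, 4188 and 4870 at 6 h. It rose 2.5-fold at 6 h with no overlap (log2 1.32 ± 0.16, adjusted p = 1.05e-04), and its second probe set rose by 0.88. Fdps, farnesyl diphosphate synthase, read 5869, 5154 and 5992 units at 0 h, 6574, 6866 and 6615 at 1 h, and 9448, 9523 and 10067 at 6 h. The times did not overlap, and the rise at 6 h was 1.71-fold (log2 0.77 ± 0.10, adjusted p = 2.30e-04).

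Squalene synthesis and the steps from squalene to cholesterol were covered by 11 genes. Of these 5 rose and 1 fell at 6 h, beside 6.11% and 10.5% of all genes. Fdft1, squalene synthase, read 3660, 3977 and 3302 units at 0 h, 3148, 2909 and 3095 at 1 h, and 3659, 3394 and 3867 at 6 h. Its 1 h arrays lay below all others, but the change of -0.25 ± 0.11 was not called (adjusted p = 0.229), and at 6 h it was back within the 0 h range. A bright cross-hybridising probe set of Fdft1 was called lower at 1 h (-0.54, adjusted p = 0.0283). A dim one, within the background at 0 h (43.2 ± 18.7, SD), was called higher at 6 h (1.88, adjusted p = 0.00237). Sqle, squalene epoxidase, read 4485, 3690 and 3188 units at 0 h, 3361, 3687 and 3075 at 1 h, and 5211, 5791 and 5742 at 6 h. The 6 h arrays lay above all others, with a rise of 1.48-fold (log2 0.57 ± 0.13, adjusted p = 0.00857).

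Lss, which closes the rings to lanosterol, had a change of 0.48 ± 0.22 at 6 h (adjusted p = 0.143) from 498, 589 and 336 units at 0 h to 588, 553 and 844 at 6 h. The groups overlapped, and its other probe sets read 0.34 and -0.19. Cyp51, the lanosterol demethylase, was the member called at all 3 comparisons. It read 1464, 1378 and 1313 units at 0 h, 2000, 2018 and 1951 at 1 h, and 4261, 4463 and 4645 at 6 h. The 3 times did not overlap. Cyp51 rose by 43.3% at 1 h (log2 0.52 ± 0.10, adjusted p = 0.0165) and 3.19-fold at 6 h (log2 1.68 ± 0.10, adjusted p = 6.95e-07). At 1 h its other probe sets read 0.01 and -0.08, and at 6 h they read 0.77 (called) and 0.63 (not called).

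Msmo1, Nsdhl and Hsd17b7 act together to strip methyl groups from the sterol ring. Msmo1, the oxygenase, read 2307, 1673 and 2061 units at 0 h, 2847, 2634 and 2324 at 1 h, and 4895, 5790 and 6100 at 6 h. It rose 2.78-fold at 6 h with no overlap (log2 1.47 ± 0.14, adjusted p = 2.50e-05). Hsd17b7, the ketoreductase, read 335, 245 and 444 units at 0 h, 483, 543 and 502 at 1 h, and 684, 540 and 562 at 6 h. Both later times lay above 0 h, and the rise at 6 h was 1.75-fold (log2 0.81 ± 0.20, adjusted p = 0.0124). Without 6 h replicate 1 the change was 0.70 and the call was lost (adjusted p = 0.057). On set B the cross-hybridising probe set of Hsd17b7 changed by 0.65 at 6 h (adjusted p = 0.0619), and a replicate block gave an adjusted p of 0.0344. Nsdhl, the dehydrogenase between them, did not follow. It read 2758, 2114 and 1905 units at 0 h and 2179, 1571 and 1823 at 6 h, which overlap (-0.28 ± 0.17, adjusted p = 0.288).

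Sc5d, a sterol desaturase near the end of the chain, had the largest log2 change of the brightest probe sets at 6 h. It read 474, 243 and 446 units at 0 h, 735, 583 and 623 at 1 h, and 1417, 1484 and 1504 at 6 h. The 3 times did not overlap, and the rise at 6 h was 3.82-fold (log2 1.93 ± 0.21, adjusted p = 6.40e-05). At 1 h the change was 0.76 ± 0.21 (adjusted p = 0.0626). The set B probe set of Sc5d differed: it read 4453, 3462 and 2992 units at 0 h, 2726, 1994 and 1808 at 1 h, and 3724, 2529 and 2462 at 6 h. Its 1 h arrays lay below its 0 h arrays, with a change of -0.69 ± 0.15 (adjusted p = 0.12, and 0.0301 with a replicate block). At 6 h it read -0.20 against 0 h, and against 1 h it was higher by 0.49 with the block (adjusted p = 0.0495).

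Dhcr7, the reductase that makes cholesterol in the last step, fell. It read 2002, 2402 and 1437 units at 0 h, 1293, 1224 and 1158 at 1 h, and 795, 806 and 732 at 6 h. Each time lay below the one before it. The level fell by 1.28 on the log2 scale at 6 h (SE 0.17, adjusted p = 2.08e-04), 58.7% lower on the signal + 16 scale, and at 1 h by 0.63 (SE 0.17, adjusted p = 0.0521). Ebp, the sterol isomerase before Sc5d, read 514, 576 and 558 units at 0 h and 487, 383 and 404 at 6 h, with no overlap but no call (-0.37 ± 0.16, adjusted p = 0.127). The sterol reductase Tm7sf2 changed by 0.07 ± 0.16 at 6 h (95% interval -0.28 to 0.43).

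**Figure D2:**
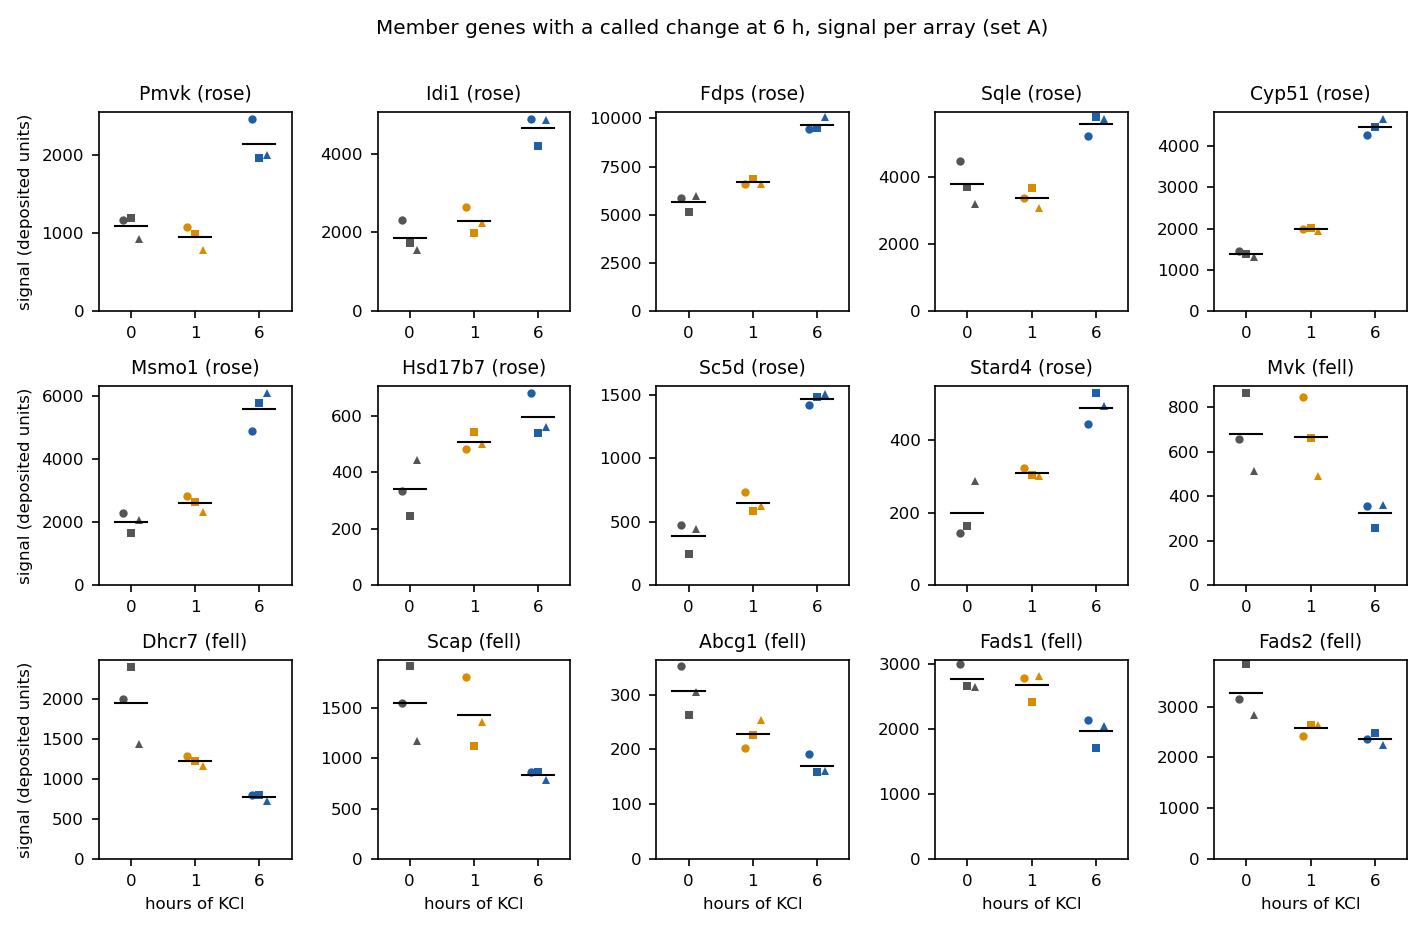
Deposited signal per set A array at 0, 1 and 6 h of KCl for the 15 genes called at 6 h against 0 h. Circles, squares and triangles are replicates 1, 2 and 3, the line is the mean of 3 arrays, and each scale starts at 0. In all 15 panels the 6 h points lie outside the range of the 0 h points. The genes were picked by a test on these same arrays, which favours such separation. Over all tested set A probe sets the 6 h arrays lay above the 0 h arrays in 17.5% and below them in 21.8%.

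Of the 5 proteins that control SREBP, 1 was called at 6 h and none at 1 h, near the shares over all genes (16.6% and 1.79%). Srebf2, the factor for sterol genes, read 2468, 2115 and 2339 units at 0 h, 1737, 2450 and 2920 at 1 h, and 2579, 2433 and 1976 at 6 h. The groups overlapped, and the change at 6 h was 0.01 ± 0.17 (95% interval -0.37 to 0.38). Its second probe set was higher at 6 h than at 1 h (0.61, adjusted p = 0.0298). Srebf1, which also drives fatty acid genes, read 1423, 1176 and 1356 units at 0 h and 1256, 1067 and 1091 at 6 h, which overlap (-0.21 ± 0.13, adjusted p = 0.279).

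Scap, the escort, was the member of this group that fell. It read 1545, 1918 and 1173 units at 0 h, 1811, 1122 and 1366 at 1 h, and 867, 861 and 790 at 6 h. The 6 h arrays lay below all others (-0.84 ± 0.19, adjusted p = 0.00802). Insig1, on set B, read 5510, 3583 and 2065 units at 0 h, 8194, 2469 and 3399 at 1 h, and 6999, 3355 and 3002 at 6 h. Replicate 1 was the highest at each time, and the change at 6 h was 0.36 ± 0.33 (95% interval -0.35 to 1.08, adjusted p = 0.75). With a replicate block it was 0.36 ± 0.19 (adjusted p = 0.337). Insig2 changed by -0.08 ± 0.18 at 6 h on its brightest probe set, and a dimmer one rose from 129 ± 33.4 (SD) to 288 ± 7.58 units (1.09 ± 0.23, adjusted p = 0.00439).

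Among the transport genes 1 of 5 rose and 1 fell at 6 h, beside 6.11% and 10.5% of all genes. Stard4, a soluble sterol carrier of the cytosol, rose on all 3 of its tested probe sets. The brightest on set A read 144, 164 and 287 units at 0 h, 324, 303 and 301 at 1 h, and 445, 529 and 495 at 6 h, with no overlap between the times. Its rise at 6 h was 2.45-fold (log2 1.29 ± 0.23, adjusted p = 0.00166). The second set A probe set rose by 2.57 ± 0.30 from 113, 54.1 and 38.2 units to 424, 452 and 482, and its 0 h mean lay within the background, which limits the size of that change. The set B probe set read 4259, 2394 and 2309 units at 0 h, 4032, 2355 and 2096 at 1 h, and 8068, 5836 and 5563 at 6 h. It changed by 1.29 ± 0.19 at 6 h (adjusted p = 0.00185). This call was lost with 64 units added, without the trend, with median scaling, on the deposited scale and with the 5' to 3' covariate. It was the single set B member probe set called, 1 of 11 at 6 h where 5.01% of all set B probe sets were called, and 1 of 11 between 1 and 6 h where 2.35% were. At 1 h 0 of 11 were called, beside 0.219% of all.

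Abca1 and Abcg1 export sterol to lipoproteins. Abcg1 read 353, 262 and 305 units at 0 h, 203, 227 and 253 at 1 h, and 191, 159 and 160 at 6 h. The 0 h arrays lay above all others, and the change at 6 h was -0.79 ± 0.20 (adjusted p = 0.014). The call was lost without 0 h replicate 1 (-0.69, adjusted p = 0.0667) and without 6 h replicate 2 (-0.75, adjusted p = 0.0524). Its set B probe set read -2.42 ± 0.80 (adjusted p = 0.131). Abca1 read 1765, 1244 and 1481 units at 0 h, 2713, 1796 and 1781 at 1 h, and 2222, 1676 and 1974 at 6 h, with changes of 0.47 ± 0.18 and 0.39 ± 0.18 that were not called. The lysosomal sterol exporters Npc1 and Npc2 changed by -0.13 ± 0.30 and -0.08 ± 0.14 at 6 h. The second probe set of Npc2 was higher at 6 h than at 1 h (0.64, adjusted p = 0.00685).

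In fatty acid synthesis and desaturation 2 of 6 genes fell and none rose on the brightest probe set at 6 h, beside 10.5% and 6.11% of all genes. Fads1, a desaturase of polyunsaturated fatty acids, read 2997, 2663 and 2657 units at 0 h, 2787, 2426 and 2820 at 1 h, and 2144, 1708 and 2043 at 6 h. The 6 h arrays lay below all others (-0.50 ± 0.12, adjusted p = 0.012), and the call was lost without 0 h replicate 1 (-0.44) and without 6 h replicate 2 (-0.40). The set B probe set of Fads1 changed by -0.07 ± 0.24 at 6 h (adjusted p = 0.962). Fads2, its partner in the same route, read 3144, 3832 and 2825 units at 0 h, 2430, 2636 and 2646 at 1 h, and 2366, 2472 and 2253 at 6 h. That probe set fell (-0.45 ± 0.13, adjusted p = 0.0202), and the call was lost without 0 h replicate 2 (-0.33), 6 h replicate 1 (-0.46) or 6 h replicate 3 (-0.42). It was also lost under median scaling and under eBayes without the trend. The other set A probe set of Fads2 rose from 1586, 1228 and 1798 units to 2761, 2578 and 2425 at 1 h (0.76 ± 0.14, adjusted p = 0.0112) and to 2232, 2190 and 1958 at 6 h (0.48 ± 0.14, adjusted p = 0.0286). Fads2 was the 1 gene with probe sets called in both directions.

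Fasn, fatty acid synthase, read 3946, 3969 and 2994 units at 0 h and 3562, 3265 and 3739 at 6 h (-0.04 ± 0.13, 95% interval -0.31 to 0.24). Acaca, acetyl-CoA carboxylase, which feeds it, was dim on set A (92.6 ± 8.97 units, SD, at 0 h) and changed by 0.38 ± 0.26. Its set B probe set read -0.03 ± 0.15. The stearoyl-CoA desaturases Scd1 and Scd2 changed by -0.21 ± 0.18 and -0.07 ± 0.12 at 6 h on their brightest probe sets. The second probe set of Scd1 rose, from 179 ± 24.8 units (SD) to 326 ± 42.6 (0.81 ± 0.21, adjusted p = 0.0166).

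Probe sets of 1 gene often differed. On set A, 58 member probe sets were tested. At 1 h 6 were called, 5 higher and 1 lower, where 4.17% of all set A probe sets were called, 3.25% higher and 0.913% lower. With arrays scaled to equal medians 3 were higher and 1 lower at 1 h, and with quantile normalization 4 and 2. These fits called 4.25% and 4.69% of all set A probe sets. At 6 h 29 were called, 23 higher and 6 lower, where 22.1% of all were called, 10.4% higher and 11.7% lower. Between 1 and 6 h 21 were called, 16 higher and 5 lower, where 11.6% of all were called, 5.07% higher and 6.51% lower. By groups of arrays, all 3 arrays at 6 h lay above all 3 at 0 h for 27 of the 58 (background 17.5%) and below them for 7 (background 21.8%). Of 17 genes with several tested probe sets on set A, 4 had all of them called the same way at 6 h, 8 had some called and some not, 4 had none called and 1 was called both ways. In 7 of the 17 the changes at 6 h spanned more than 1 log2 unit.

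Scd2, which desaturates stearoyl-CoA and is the main such enzyme of brain, showed the widest case at 1 h. Its dimmest probe set read 689, 780 and 1500 units at 0 h, 3171, 3007 and 3013 at 1 h, and 3116, 2810 and 2499 at 6 h. All later arrays lay above 0 h, with changes of 1.70 ± 0.22 at 1 h (adjusted p = 9.68e-04) and 1.57 ± 0.22 at 6 h (adjusted p = 3.80e-04). Its brightest probe set read 13837, 14971 and 17007 units at 0 h and 16126, 15750 and 15227 at 1 h, which overlap (0.04 ± 0.12). Abca1 was alike: a dimmer probe set read 121, 125 and 260 units at 0 h, 537, 385 and 424 at 1 h, and 513, 351 and 474 at 6 h (1.40 ± 0.27 at 1 h, adjusted p = 0.0135). In both cases 0 h replicate 3, the 0 h array with the highest 5' to 3' ratio, also had the highest 0 h signal. The dim probe sets of Stard4 and Fdft1 were instead lowest in that array, at 38.2 and 26.6 units. Both lay within the background at 0 h and were called higher at 6 h. A link to the ratio over all dim probe sets was not tested.

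**Figure D3:**
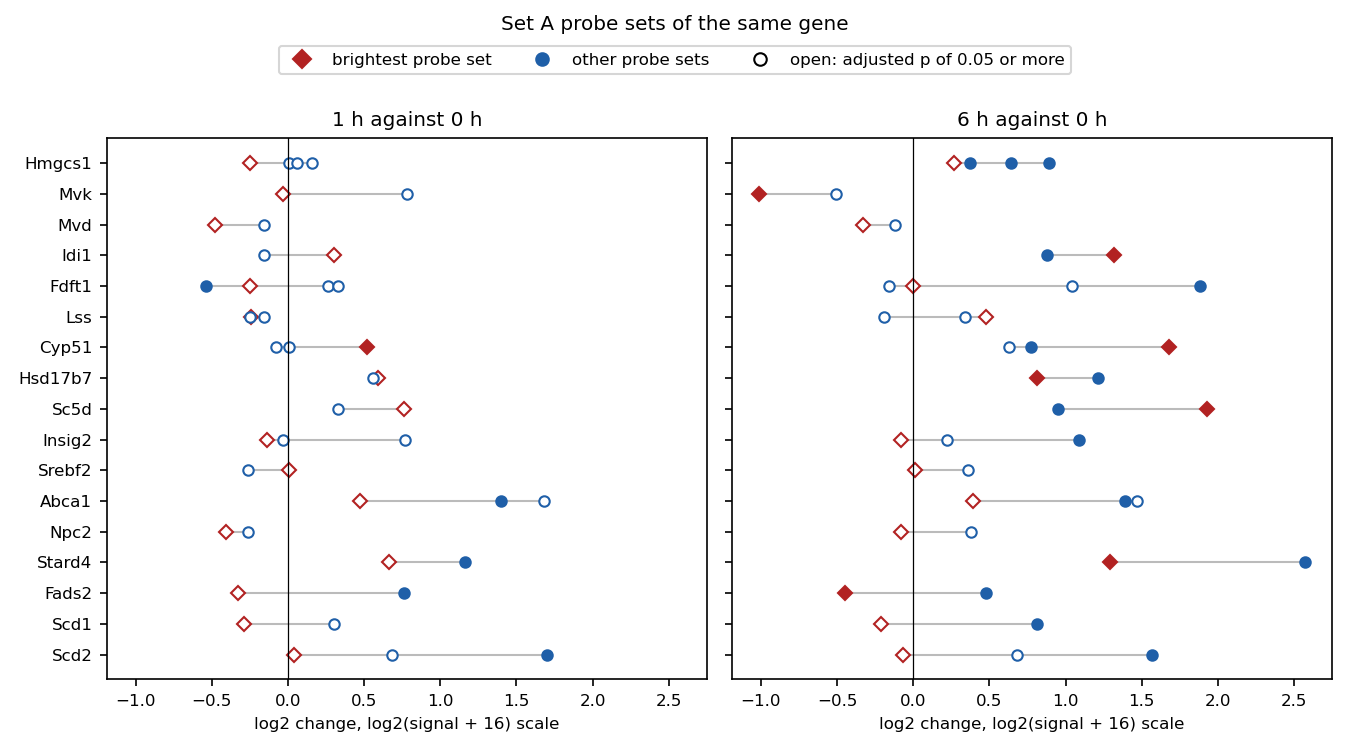
Log2 change of every tested set A probe set of the 17 genes with more than 1, at 1 h (left) and 6 h (right) against 0 h. Diamonds are the brightest probe set of a gene and circles the others, filled where the adjusted p was under 0.05; the circles lie right of the diamond in 18 of 26 cases at 1 h and in 19 of 26 at 6 h.

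Over the 26 other probe sets, the change was more positive than that of the gene's brightest probe set in 18 at 1 h (median difference 0.31) and 19 at 6 h (0.43), and in 15 between 1 and 6 h (0.06). The Gapdh 5' to 3' ratio moved alongside, from 0.859 ± 0.195 (SD) at 0 h to 1.17 ± 0.103 and 1.21 ± 0.0427. With this ratio as a covariate 0 of 58 member probe sets were called at 1 h, beside 0.377% of all set A probe sets. At 6 h 6 were called, all higher, beside 3.44%. These 6 were Pmvk (1.14), Idi1 (1.50), Cyp51 (1.70), Msmo1 (1.21), Sc5d (1.41) and the dim probe set of Stard4 (2.93). The dim probe set of Scd2 read 0.95 at 6 h with the covariate and that of Abca1 read 0.74, neither called. Between 1 and 6 h the Gapdh ratio differed little, while the Actb ratio was 0.614 to 0.711 at 1 h and 0.556 to 0.596 at 6 h. In this comparison 23 were called with the Gapdh covariate, 18 higher and 5 lower, beside 12.2% of all set A probe sets. With the covariate, SEs against 0 h were wider, for example 0.36 against 0.23 for Mvk at 6 h. Between 1 and 6 h the SE of Mvk was 0.23 in both fits. The ratio rose from 0 h to the later times, so this fit cannot tell it apart from the change against 0 h.

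**Figure D4:**
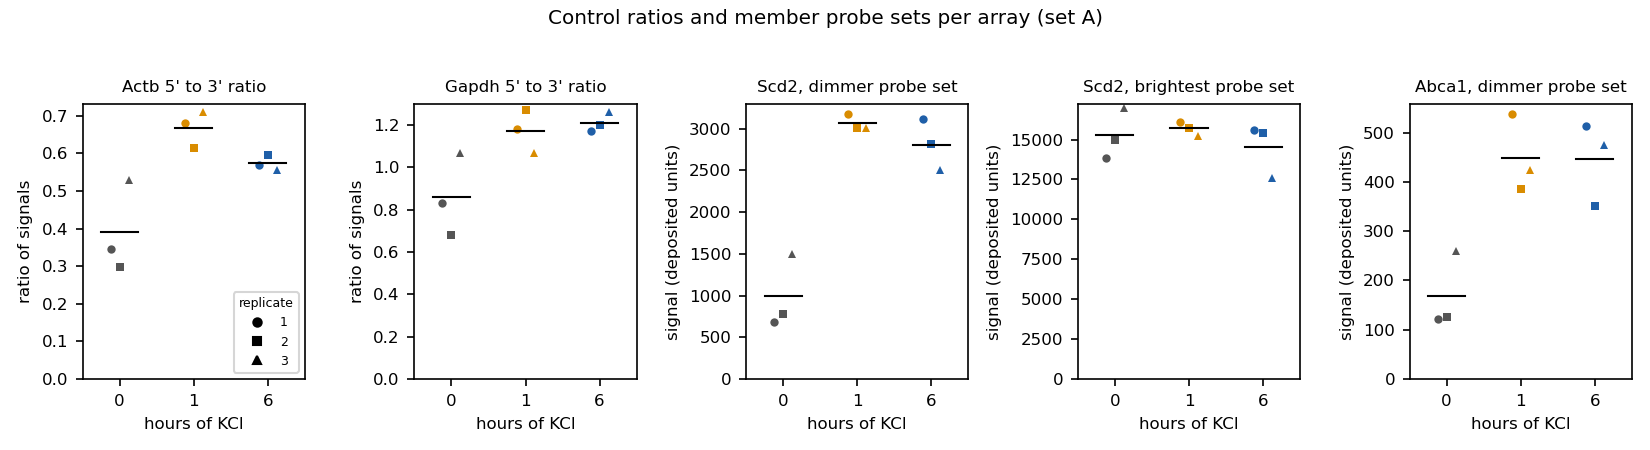
Ratio of 5' to 3' control signal of Actb and Gapdh, and deposited signal of Scd2 and Abca1 probe sets, per set A array at 0, 1 and 6 h (circles, squares and triangles for replicates 1, 2 and 3, line at the mean). The 0 h ratios are lowest in replicates 1 and 2, and the dimmer probe sets of Scd2 and Abca1 are lowest in those arrays too, while the brightest Scd2 probe set overlaps between times. Dim probe sets of Stard4 and Fdft1, not drawn, were lowest at 0 h in replicate 3.

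The falls were also read with the covariate. Dhcr7 then read -0.79 (adjusted p = 0.0594), Mvk -0.66 (adjusted p = 0.388), Scap -0.29 (adjusted p = 0.606), Abcg1 -0.85 (adjusted p = 0.207), Fads1 -0.43 (adjusted p = 0.293) and Fads2 -0.15 (adjusted p = 0.715). Among the rises, Fdps read 0.61 (adjusted p = 0.0506), Sqle 0.65 (adjusted p = 0.134), Hsd17b7 0.25 (adjusted p = 0.681) and the brightest probe set of Stard4 0.74 (adjusted p = 0.255). None of the 15 changed direction. The part of RNA quality in these changes was not tested beyond this fit.

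At 1 h the number of calls changed with the array left out. Without 0 h replicate 3, 7 genes were called at 1 h instead of 1, adding Hsd17b7 (0.79), Sc5d (0.89), Stard4 (0.94), Mvd (-0.63), Dhcr7 (-0.83) and Npc2 (-0.58) to Cyp51. Of probe sets, 15 of 58 were then called instead of 6, and calls over all set A probe sets also went up, from 4.17% to 7.71%. Without 1 h replicate 3 no gene was called, and Cyp51 read 0.53 (adjusted p = 0.0577). Over all set A probe sets 1.63% were then called. At 6 h the count was 15 genes without 0 h replicate 3, as with it.

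The interval between 1 and 6 h was compared directly. Of the 17 sterol enzymes, 8 were higher at 6 h than at 1 h and 2 lower, beside 3.97% and 5.79% of all genes. Their median log2 difference was 0.52, against -0.05 over all genes. Cyp51 (1.16 ± 0.10, adjusted p = 2.93e-05), Pmvk (1.16 ± 0.16), Sc5d (1.17 ± 0.21), Msmo1 (1.10 ± 0.14) and Idi1 (1.02 ± 0.16) had a signal 2.03- to 2.25-fold higher at 6 h than at 1 h. Pmvk, Sqle and Hmgcs1 had signals below 0 h at 1 h, by values that were not called (-0.20, -0.16 and -0.25), and were higher at 6 h than at 1 h. Leaving out 1 array changed the share called over all set A probe sets, 11.6% with all arrays, to between 6.07% and 12.7%. Some other member calls of this comparison were lost in these fits. That of Mvk was lost without 1 h replicate 1 (-0.80) and 6 h replicate 2 (-0.83). That of Hmgcs1 was lost without 0 h replicate 1 (0.52), 1 h replicate 2 (0.55) or 3 (0.42), or 6 h replicate 2 (0.48) or 3 (0.49). Dhcr7 lost its call without any 1 of the 1 h or 6 h arrays (-0.60 to -0.68). Scap lost it without 1 h replicate 1 (-0.55) or 3 (-0.75) or any 1 of the 6 h arrays (-0.69 to -0.76), and Fads1 without 1 h replicate 1 (-0.42) or 3 (-0.41) or 6 h replicate 2 (-0.35) or 3 (-0.48). With arrays scaled to equal medians, 18 member probe sets of set A were higher and 2 lower in this comparison, instead of 16 and 5. Over all set A probe sets the split moved as well, from 860 higher and 1104 lower to 1114 and 689.

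Genes outside the set were read as lists for context. Over all genes 1.79% were called at 1 h, and at 6 h 6.11% were higher and 10.5% lower. Of 25 other sterol and isoprenoid genes listed, 17 were measured; none was called at 1 h, and at 6 h 1 rose and 2 fell, with a median of -0.15. Lrp8, a lipoprotein receptor of neurons, rose by 1.19 ± 0.27, Fntb, a farnesyltransferase subunit, fell by 0.87, and Mbtps1, the protease that makes the first cut in SREBP, fell by 0.58. Of 30 other fatty acid and glycerolipid genes, 27 were measured; none was called at 1 h, and 5 rose and 6 fell at 6 h. Acsl4, which activates arachidonate, rose by 1.75 ± 0.16, and Hsd17b12, a reductase of fatty acid elongation, rose by 1.69 ± 0.12. Gpam, the acyltransferase that starts glycerolipid synthesis, fell by 1.20, and Thrsp, a regulator of lipogenesis, fell by 0.94.

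Markers of other cells were read beside these changes, since astrocytes make much of the sterol of brain. The summed signal of 10 astrocyte markers on set A ran from 20788 to 21338 units at 0 h, 15147 to 17504 at 1 h and 13394 to 15488 at 6 h. Of the 11 listed, 1 was called lower at 1 h (Slc1a3, -0.54) and 3 at 6 h (Aldoc, -1.02, Gfap, -0.70, and Aqp4, -0.53). The summed signal of 8 neuronal markers ran from 42515 to 44466 at 0 h, 44828 to 49197 at 1 h and 48898 to 52502 at 6 h. Of the 9 listed, 4 were called higher and 1 lower at 6 h. Over all genes 0.689% were called lower at 1 h, and 6.11% higher and 10.5% lower at 6 h. Sums of oligodendrocyte lineage (7526 to 10693 units at 0 h, 7232 to 9310 at 6 h), microglial (888 to 1364, then 1147 to 1317) and vascular and fibroblast markers (954 to 1056, then 845 to 1048) overlapped between these times. All probe sets lay within the background at every time for 2 of 11 listed astrocyte markers, 3 of 9 microglial and 4 of 9 vascular and fibroblast markers, and for none of the neuronal ones. The astrocyte sum is carried by its bright members. The median change over the astrocyte list was -0.15 at 6 h, against -0.09 over all genes, 8 of 11 were not called, and Slc1a3 was higher at 6 h than at 1 h (0.45). The part of astrocytes in the changes of the sterol and lipid genes was not tested.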

How the data were processed

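Total RNA of 9 cultures, 3 per time, was labelled with biotin and hybridised to array sets A and B, per the labels' protocols. The deposited values are linear intensities, 1 per probe set and array, scaled by the authors; the summary software is not given in the sources used here. Values below 0 were set to 0, 16 units were added and log2 was taken. Set A kept its deposited scale (array medians within 0.24 log2), and set B (0.56) was quantile-normalized. The 64 control probe sets and the lowest 25% by mean signal were left out, which left 16969 and 16883 probe sets. Of all probe sets, 20393 on set A and 14674 on set B carry 1 gene symbol in the platform annotation, 691 and 245 carry several and are not named, and 1555 and 7605 are unnamed here.

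Each set was fitted by itself by limma's lmFit and eBayes (version 3.58.1, R 4.3.3), with 1 mean per time, an intensity trend and two-sided p-values, tested beforehand on simulated data. The data.table package (1.17.8), statmod 1.5.0, Python 3.11.15, pandas 2.3.3 and matplotlib 3.10.9 were also used. A gene's probe set of highest mean stands for it, set A first, without cross-hybridising ones unless no other existed. All 34 members are named; those called at 6 h and up to 2 more per role have every array printed, with a few added after their values were seen. Up to 4 called genes per context list are named. Members and lists were chosen with earlier results of these data known.

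Arrays of the same number were checked for deviating together. On set B all 9 such pairs correlated at 0.15 to 0.48, and pairs of different number at -0.31 to 0.2. The values of 0.45 to 0.48 were those of number 1, which also marks the other summary method. Among arrays numbered 2 and 3, same-number pairs gave 0.15 to 0.21 and different-number pairs 0.13 to 0.2. The set B block may therefore stand for the summary method. On set A same-number pairs gave 0.02 to 0.17 and the others -0.14 to 0.03. The main fit of neither set used a block, and these values do not settle the pairing. Alternatives were the added units, the filter, the moderation, the scaling, a replicate block, a 5' to 3' covariate and leaving out each array. Precision is limited by the number of arrays. Of the pathway, genes that no probe set names were not analysed here.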

Additional observations from a re-analysis of the deposited data

Results flagged for a closer look

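For 12 genes the change from 0 h differed between 1 h and 6 h by the test of the 6 h against the 1 h arrays (limma, Benjamini-Hochberg adjusted p under 0.05). The 6 h change was the more positive for Hmgcs1 by 0.52 (log2, adjusted p = 0.0349), Pmvk by 1.16, Idi1 by 1.02, Fdps by 0.53, Sqle by 0.73, Cyp51 by 1.16, Msmo1 by 1.10 and Sc5d by 1.17. It was the more negative for Mvk (difference -0.99, adjusted p = 0.0168), Dhcr7 (-0.64), Scap (-0.73) and Fads1 (-0.45). In Hmgcs1, Pmvk and Sqle the change was negative at 1 h and positive at 6 h, with 1 h values of -0.25, -0.20 and -0.16 that did not pass the test. On these set A probe sets the chain held steps with opposite differences next to each other: Mvk at -0.99 before Pmvk at 1.16, and Sc5d at 1.17 before Dhcr7 at -0.64. The call of Dhcr7 was lost in 8 of 19 alternatives and that of Mvk in 3 of 19. The set B probe set of Sc5d differed by 0.49 between 1 and 6 h (adjusted p = 0.143).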

How the results depend on the processing

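Of the 15 gene calls at 6 h, those of Pmvk, Idi1, Cyp51, Msmo1 and Sc5d held in all 19 alternatives, and no value reversed its direction. These alternatives used the same set A probe sets, and the set B probe set of Sc5d read -0.20 at 6 h. With the Gapdh control ratio in the fit, as a covariate, 5 genes were called at 6 h and 0 at 1 h, and 6 and 0 probe sets of set A. Over all set A probe sets 3.44% and 0.377% were called in that fit. Leaving out 1 array gave 0 to 7 genes at 1 h, 13 to 15 at 6 h and 7 to 14 between 1 and 6 h, and 3 to 15, 22 to 30 and 13 to 23 probe sets of set A. Over all set A probe sets the shares called moved as well, to 1.63% to 7.71%, 15.4% to 23% and 6.07% to 12.7%. With all arrays these shares were 4.17%, 22.1% and 11.6%. The lowest count between 1 and 6 h came without 6 h replicate 2. At 1 h the gene count of 1 became 2 with 64 units added, 3 with the lowest 50% left out, 0 without the trend, 4 with the replicate block, 0 with median scaling, 2 with quantile normalization and 6 if any probe set of a gene counts. Up to quantile normalization, these settings called 4.63%, 7.37%, 1.56%, 6.02%, 4.25% and 4.69% of all set A probe sets, in the same order. Without the trend 7 genes were called between 1 and 6 h, and 1 probe set of set A at 1 h. Over all set A probe sets 7.94% and 1.56% were called in these comparisons without the trend. The set A replicate block, whose pairing is not settled, called 9, 32 and 21 probe sets in the 3 comparisons. Its shares over all set A probe sets were 6.02%, 24.3% and 13.7%. On set B, 64 units added, no trend, median scaling and the deposited scale each gave 0 calls at 6 h and 0 between 1 and 6 h, and the covariate gave 0 at 6 h, so the call of Stard4 was lost there. Over all set B probe sets these fits called 0.723% to 2.85% at 6 h, beside 5.01% in the main fit. With the lowest 50% left out there were 2 set B member calls at 6 h, beside 8.42% of all. The replicate block gave 1 at 1 h, 2 at 6 h and 2 between 1 and 6 h, beside 0.687%, 8.7% and 5.09% of all. The summary method as a block, added after seeing the data, gave 1, 2 and 1, beside 0.657%, 8.46% and 4.81% of all. The replicate block changed no other set B call. The causes were not tested. Signal limits the dim probe sets of Fdft1, Stard4 and Acaca.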
